A study of Mus musculus with 6 samples.

Results

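Ribosome biogenesis was followed through 42 genes chosen by symbol, out of 50686 genes counted in bulk RNA of splenic natural killer (NK) cells of mice. The genes encode RNA polymerase I subunits and cofactors, nucleolar proteins, the small nucleolar ribonucleoproteins (snoRNPs) and factors that assemble the small and large ribosomal subunits. The Eumyc group held NK cells from C57BL/6J mice inoculated intravenously with Eumyc lymphoma, taken at day 14. The WT group held NK cells from healthy C57BL/6J mice, labelled wild type, and each group had 3 libraries. Both were depleted of B cells, enriched with CD49b beads and sorted as NK1.1-positive, T cell receptor beta-negative cells. The Eumyc sort also received the cells that the beads had not retained, so this step and the lymphoma cannot be told apart. The age of the mice, the number of lymphoma clones and whether the 3 libraries of a group came from separate animals are not stated in the labels. The p-values therefore measure only the spread between these libraries, which may be technical.

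Ribosomes are built in the nucleolus. RNA polymerase I transcribes a long precursor RNA there, snoRNPs guide its methylation and pseudouridylation, and large sets of assembly factors fold, cut and export both subunits. Lymphocytes enlarge this machinery when they are activated and divide, and the transcription factor MYC is a known inducer of many of its genes. In Eumyc lymphoma the Myc oncogene is driven in the B cell lineage by an immunoglobulin heavy chain enhancer.

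The Eumyc libraries held 44456157 to 66615602 gene counts and the WT libraries 16407611 to 36534191, so every Eumyc library was deeper. The tested members had 201 to 52245 counts in a library. The NK marker Ncr1 was at 1124 ± 66.1 CPM in Eumyc and 1365 ± 43.1 CPM in WT (SD, n = 3 each; CPM are counts scaled to a common library total by edgeR's TMM method). Of 13 NK genes 7 were called lower, among them Ncr1, and 1, Il2rb, higher, and their summed CPM, unscaled, was 15780 ± 553 in Eumyc and 17280 ± 130 in WT (SD, n = 3 each). The other marker lists are given by the same unscaled sums. For 20 cell cycle genes it was 3074 to 4314 in Eumyc and 536 to 1180 in WT, and all 20 were called higher. For 15 B cell genes it was 145 to 154 in Eumyc and 145 to 165 in WT, with 7 of 10 tested genes called higher and 1 lower. The gene called lower, Cd72, made up most of the sum, at 96.0 CPM in Eumyc and 134 CPM in WT, and the median log2 fold change of the 10 was 1.64. Monocyte and macrophage genes (8 of 12 higher) summed to 2617 to 3218 CPM in Eumyc and 1669 to 1839 in WT. Itgax (1215 CPM in Eumyc, 769 in WT) and Ccr2 (978 and 832 CPM) made up most of both sums. Csf1r, Lyz2 and Fcgr4 were called higher, by 5.33-, 11.6- and 76.7-fold. The median log2 fold change of the 12 was 0.59, and none was called lower. T cell genes (3 of 10 higher, where 25.7% of all tested genes were called higher) summed to 126 to 163 CPM in Eumyc and 49.9 to 58.1 in WT. Cd3g (64.8 CPM in Eumyc, 14.9 in WT) and Cd3d (55.2 and 17.0 CPM) made up most of both sums. Cd3e, Cd6 and Themis had log2 fold changes of -0.20, -0.28 and -0.74 without a call. The median of the 10 was 0.36, and none was called lower. Erythroid genes (9 of 10 higher) summed to 114 to 138 CPM in Eumyc and 44.4 to 56.3 in WT. Neutrophil genes (8 of 8 tested higher) summed to 44.8 to 58.3 CPM in Eumyc and 0.164 to 3.72 in WT. No gene of these lists was at 0 in every library. The part of these cells and of cell division in the results below was not tested, and in bulk RNA fewer cells of a type and less RNA per cell cannot be told apart.

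Promoter sequences show where the recognition letters of MYC lie near these genes. MYC with its partner MAX binds the palindrome CACGTG, which reads the same on both strands. RefSeq promoters on GRCm38.p6, from 250 bases before the gene start to 50 after it, were matched for 36 members, and 8 of the 36 (22.2%) held CACGTG. The share was 11.3% of 10183 tested genes with a promoter and 8.09% of all 27025 genes. The 8 were Mybbp1a, Pes1, Nop2, Tsr1, Utp20, Wdr43, Utp4 and Imp4. Of these 7 rose and Imp4 fell, with a median log2 fold change of 0.39, against 18 risen, none fallen and a median of 0.34 among the 27 tested members without it. The related letters CACGCG, searched on both strands, were in 36.1% of members, 19.3% of tested genes and 10.5% of all genes, with medians of 0.41 in 13 members with them and 0.34 in 22 without. A match is only a description of letters in this window. The 4 promoters printed are the 3 with the highest fold changes among those with CACGTG, and that of Imp4, which moved the other way. The capitals mark CACGTG. Tsr1 is from chr11:74897830-74898129 on the plus strand, Mybbp1a from chr11:72441077-72441376 on the plus strand, Utp20 from chr10:88826765-88827064 on the minus strand and Imp4 from chr1:34439579-34439878 on the plus strand.
Tsr1: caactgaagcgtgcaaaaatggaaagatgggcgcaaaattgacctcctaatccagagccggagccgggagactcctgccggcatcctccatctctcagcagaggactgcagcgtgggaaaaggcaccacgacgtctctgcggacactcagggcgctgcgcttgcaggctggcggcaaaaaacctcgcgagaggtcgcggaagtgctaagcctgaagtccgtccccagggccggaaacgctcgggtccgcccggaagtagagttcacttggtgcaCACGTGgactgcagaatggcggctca
Mybbp1a: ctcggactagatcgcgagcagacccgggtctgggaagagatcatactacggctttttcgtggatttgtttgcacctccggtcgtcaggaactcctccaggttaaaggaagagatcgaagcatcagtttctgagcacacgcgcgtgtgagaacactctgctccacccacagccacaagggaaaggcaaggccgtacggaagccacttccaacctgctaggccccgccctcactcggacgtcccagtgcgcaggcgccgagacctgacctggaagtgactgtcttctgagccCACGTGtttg
Utp20: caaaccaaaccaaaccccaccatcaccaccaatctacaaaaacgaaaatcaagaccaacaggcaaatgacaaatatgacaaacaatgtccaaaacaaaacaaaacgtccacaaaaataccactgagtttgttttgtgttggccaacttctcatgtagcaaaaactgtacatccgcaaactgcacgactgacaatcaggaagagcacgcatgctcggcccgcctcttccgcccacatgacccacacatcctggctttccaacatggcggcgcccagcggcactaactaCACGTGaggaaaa
Imp4: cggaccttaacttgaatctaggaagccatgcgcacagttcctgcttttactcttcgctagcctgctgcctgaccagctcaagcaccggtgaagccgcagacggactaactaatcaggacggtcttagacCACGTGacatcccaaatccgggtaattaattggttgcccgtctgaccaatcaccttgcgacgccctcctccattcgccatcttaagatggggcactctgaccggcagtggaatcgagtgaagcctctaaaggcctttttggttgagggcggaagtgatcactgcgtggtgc
In Tsr1, Mybbp1a and Utp20 the motif began at bases 275, 291 and 288 of the 300, behind the annotated start, and in Imp4 at base 130, ahead of it.

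Most of the ribosome biogenesis genes were modestly higher in NK cells of lymphoma-bearing mice. Of 41 tested members 31 rose, 1 fell and 9 did not pass, with a Benjamini-Hochberg adjusted p under 0.05 in edgeR's quasi-likelihood test over 15458 genes. Over all tested genes 48.8% passed, with 25.7% called higher and 23.1% lower. The median log2 fold change was 0.37 over the members, with quartiles of 0.25 and 0.64, and 0.00 over all tested genes (quartiles -0.37 and 0.37). The largest member change with all libraries was 1.98-fold, in Nhp2, and without WT 3 the log2 fold changes of Nhp2, Nop16, Rrp12 and Rrp1b were 1.17, 1.11, 1.09 and 1.07. All 3 Eumyc libraries lay above all 3 WT libraries for 33 members, where 31.3% of tested genes did so, and below them for 1 member, where 28.9% did. The log2 fold change was above 0 for 39 of 41 members and for 49.6% of all tested genes. Together the 42 genes took 0.369% of all counts in Eumyc and 0.273% in WT, and without Ncl and Npm1 0.264% and 0.208%. Without WT 1, WT 2 or Eumyc 3 the number of members that rose was 22, 23 and 24, where 20.4%, 20.2% and 20.7% of all genes did. It was 28 without Eumyc 1 or Eumyc 2 (22.1% and 23.5% of all genes) and 33 without WT 3 (26.5%). Of the 31 risen members 22 passed in every alternative processing tried.

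**Figure D1:**
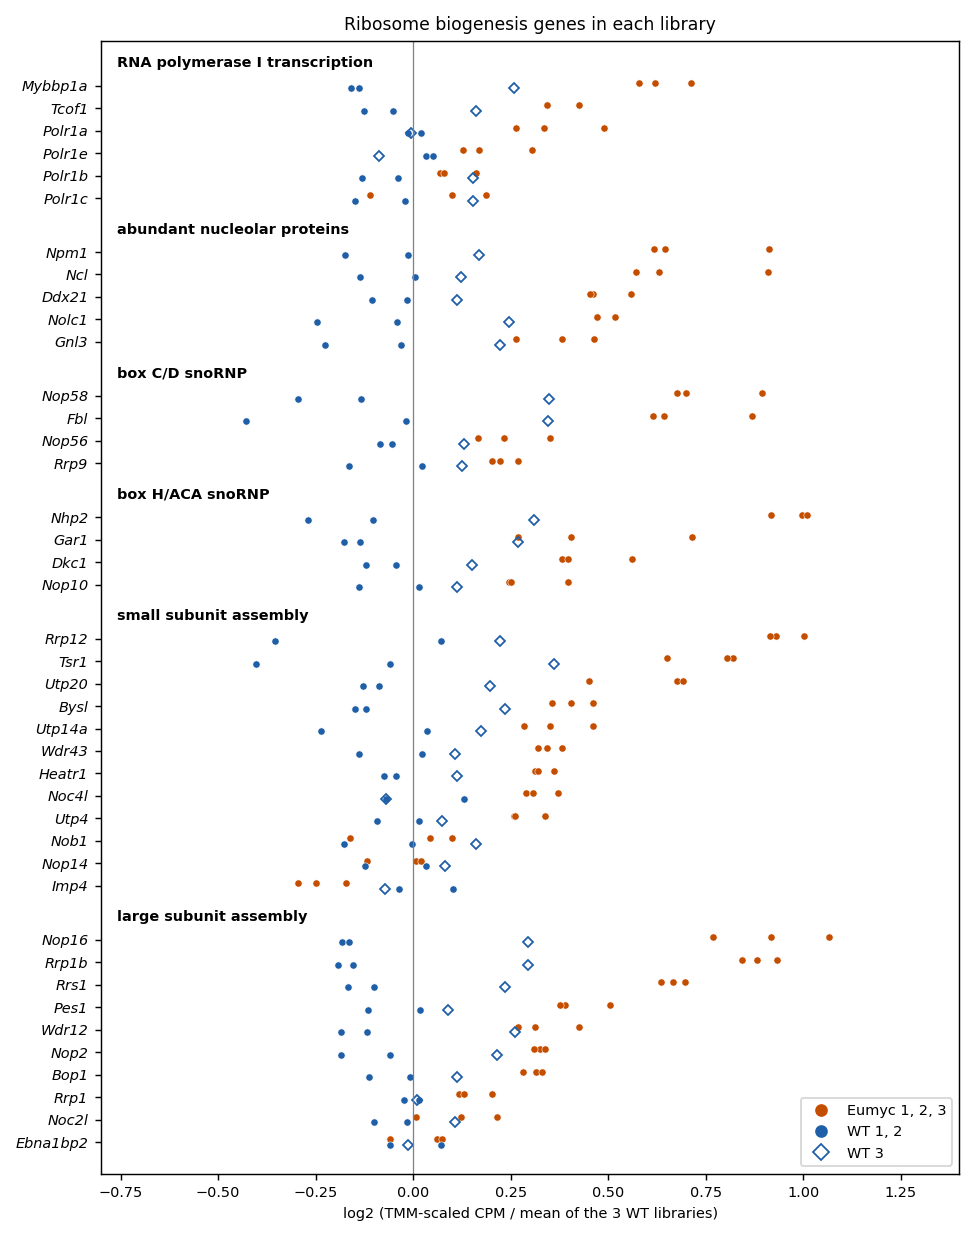
TMM-scaled CPM of the 41 tested members in each library, as the log2 ratio to the mean of the 3 WT libraries, by role and sorted by fold change. Orange points are Eumyc libraries, blue points WT 1 and 2, and open diamonds WT 3. Most Eumyc points lie right of the WT points, Imp4 lies left of them, and WT 3 is the WT library closest to Eumyc for most genes.

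Against a 1.5-fold threshold the members passed at about the share of all tested genes. Nhp2, Rrp12 and Rrp1b passed this test (edgeR adjusted p = 0.0233, 0.0319 and 0.0401). They were 3 of 41 members, where 8.15% of all tested genes passed it and were higher (11.8% in either direction). The count rested on single libraries. It was 10 without WT 3 and 6 with the replicate number as a block. It was 2 without Eumyc 1, 1 without Eumyc 2, and 0 without WT 1, WT 2 or Eumyc 3. The share of all tested genes past the threshold is not given for these fits, so these shifts cannot be read as particular to the members.

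Of 6 genes for RNA polymerase I and its cofactors 3 rose and none fell, with a median log2 fold change of 0.28. Polr1a, the largest catalytic subunit, was at 60.8, 57.9 and 67.7 CPM in Eumyc libraries 1 to 3 and at 48.9, 47.7 and 48.1 CPM in WT libraries 1 to 3. It rose by 0.37 ± 0.07 (log2, SE; edgeR adjusted p = 0.00427), with no overlap between the groups. Polr1b, the second largest subunit, stood at 41.1, 41.5 and 43.9 CPM in Eumyc and 38.2, 35.9 and 43.7 CPM in WT, and WT 3 lay among the Eumyc values. Polr1c, shared with RNA polymerase III, stood at 26.5, 30.7 and 32.6 CPM in Eumyc and 28.2, 25.8 and 31.9 CPM in WT, with overlapping groups. Polr1e stood at 17.7, 18.2 and 20.0 CPM in Eumyc and 16.6, 16.8 and 15.2 CPM in WT, without overlap. None of these 3 passed (edgeR adjusted p = 0.335, 0.631 and 0.118). Of the cofactors, Mybbp1a, a nucleolar partner of the polymerase, rose by 0.64 ± 0.11 and was at 184, 179 and 196 CPM in Eumyc and 109, 107 and 143 CPM in WT. Tcof1, which encodes treacle, the scaffold that keeps polymerase I on its template, rose by 0.37 ± 0.08, at 172 ± 5.74 CPM in Eumyc and 133 ± 14.0 CPM in WT (SD, n = 3 each).

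Other genes of the polymerase I system, which were not members, were called in both directions. Of 13 listed, 4 rose, 5 fell and 4 did not pass, with a median log2 fold change of -0.11. Over all tested genes 25.7% were called higher and 23.1% lower. With 13 genes these counts are not read as particular to the list. The polymerase subunit genes Cd3eap, Twistnb and Polr1d and the initiation factor gene Rrn3 rose by 0.59 ± 0.15, 0.32 ± 0.08, 0.28 ± 0.06 and 0.32 ± 0.07. The promoter selectivity factor genes Taf1a and Taf1c had log2 fold changes of -0.56 ± 0.08 and -0.42 ± 0.08. Taf1a was at 19.5, 18.9 and 19.01 CPM in Eumyc and 27.6, 29.4 and 27.4 CPM in WT, with no overlap. Tbp, the TATA-binding protein gene, had a log2 fold change of -0.26 ± 0.06. The terminator factor gene Ttf1 and Baz2a, which encodes a subunit of a silencing complex of ribosomal DNA, had -0.24 ± 0.07 and -0.28 ± 0.09. Ubtf, the upstream binding factor gene, was at 296 CPM in Eumyc and 281 CPM in WT and did not pass (edgeR adjusted p = 0.259). Polr1d and Rrn3 and Ubtf were named after their values were seen. The lower count was 3 without WT 2, Eumyc 1 or Eumyc 3 and 4 without WT 1 or WT 3. Of all tested genes 16.3% to 22.4% were called lower in these fits. The call of Ttf1 did not hold without WT 2, WT 3, Eumyc 1 or Eumyc 3, and Baz2a without WT 1, WT 2, Eumyc 1 or Eumyc 3 (edgeR adjusted p = 0.0541 to 0.0984 in these cases).

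All 5 abundant nucleolar protein genes rose. Npm1, whose product nucleophosmin is a chaperone of pre-ribosomes, was at 349, 355 and 428 CPM in Eumyc and 225, 201 and 255 CPM in WT (0.73 ± 0.11, edgeR adjusted p = 0.000984). Ncl, encoding nucleolin, was the most abundant member at 622, 648 and 786 CPM in Eumyc and 419, 380 and 455 CPM in WT (0.71 ± 0.10, edgeR adjusted p = 0.000969). For both, Eumyc 3 was the highest library and no value of one group lay within the other. Npm1 has many processed pseudogenes, so its count is uncertain. Ddx21, an RNA helicase of rRNA transcription and processing, and Nolc1, a chaperone of snoRNPs, each rose by 0.49, with SE of 0.07 and 0.11. Gnl3, encoding nucleostemin, was at 37.1, 40.2 and 42.5 CPM in Eumyc and 30.2, 26.4 and 36.0 CPM in WT. It rose by 0.38 ± 0.12 (edgeR adjusted p = 0.0270), and lost its call without WT 1, WT 2, Eumyc 2 or Eumyc 3 (0.0827, 0.0823, 0.0575 and 0.0811) and at equal depth (0.0606).

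The core proteins of the box C/D snoRNPs, which guide methylation of the ribose in rRNA, rose unevenly. Nop58 was at 93.5, 92.0 and 107 CPM in Eumyc and 52.5, 46.9 and 73.3 CPM in WT and rose by 0.77 ± 0.15. The methyltransferase gene Fbl was at 46.2, 45.4 and 54.1 CPM in Eumyc and 29.2, 22.0 and 37.6 CPM in WT and rose by 0.72 ± 0.17. In both genes the WT libraries were widely spread, with WT 3 the highest, and still lay below all Eumyc libraries. Nop56, the partner of Nop58, was at 107, 112 and 121 CPM in Eumyc and 91.5, 89.5 and 104 CPM in WT and rose by 0.25 ± 0.08 (edgeR adjusted p = 0.0240). Its call was lost without WT 1, WT 2 or Eumyc 3 (0.0856, 0.0850 and 0.0743) and with total count scaling (0.0522). Rrp9, a protein of the U3 snoRNP, was at 38.8, 37.6 and 37.0 CPM in Eumyc and 32.8, 28.8 and 35.2 CPM in WT. It did not pass (edgeR adjusted p = 0.0552), but passed without WT 3 (0.0187), with DESeq2 (0.0398), limma-voom (0.0290) and the replicate block (0.0437).

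The 4 proteins of the box H/ACA snoRNPs, which guide pseudouridylation and also belong to telomerase, all had transcripts that rose. Nhp2, on chromosome 11 from 51619735 to 51623714, had the largest change of any member. It was at 48.2, 45.6 and 48.6 CPM in Eumyc and 22.5, 20.1 and 29.9 CPM in WT (0.98 ± 0.14, edgeR adjusted p = 0.000802). Dkc1, the pseudouridine synthase gene, was at 68.5, 69.2 and 77.5 CPM in Eumyc and 51.0, 48.4 and 58.3 CPM in WT (0.45 ± 0.09). Nop10 was at 35.4, 35.5 and 39.4 CPM in Eumyc and 30.2, 27.1 and 32.3 CPM in WT (0.30 ± 0.09). Gar1 was at 21.3, 23.4 and 29.0 CPM in Eumyc and 16.1, 15.6 and 21.3 CPM in WT (0.48 ± 0.16), and Eumyc 1 and WT 3 met. The call of Gar1 was lost without WT 1 (edgeR adjusted p = 0.111), WT 2 or Eumyc 3 (0.112 each) or Eumyc 2 (0.05002), and at equal depth (0.0555). Nop10 lost it without WT 1, WT 2 or Eumyc 3 (0.0594, 0.0756 and 0.0774), so that 2 of the 4 genes passed without each of these libraries. Per kilobase of the longest CCDS transcript, the levels in Eumyc were 45.6 CPM for Nhp2, 33.1 for Nop10, 25.6 for Dkc1 and 19.3 for Gar1. In WT they were 23.2 CPM per kilobase for Nhp2, 26.9 for Nop10, 18.7 for Dkc1 and 13.9 for Gar1. By this length Nop10 led in WT and Nhp2 in Eumyc, and which transcripts were expressed was not tested.

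Small subunit assembly genes rose in 9 of 12 cases, fell in 1 and did not pass in 2, with a median log2 fold change of 0.34. Rrp12, an export and maturation factor on chromosome 19 from 41862852 to 41896153, was at 31.1, 30.8 and 32.7 CPM in Eumyc and 17.2, 12.8 and 19.1 CPM in WT. It rose by 0.96 ± 0.14 (edgeR adjusted p = 0.000983). Tsr1, a late assembly factor, rose by 0.77 ± 0.17 and Utp20, a processome scaffold, by 0.62 ± 0.11. Heatr1, the most abundant gene of this role, was at 102, 106 and 102 CPM in Eumyc and 79.7, 77.9 and 88.8 CPM in WT (0.33 ± 0.06). The processome genes Wdr43 and Utp4 and the assembly genes Noc4l, Bysl and Utp14a rose by 0.29 to 0.41. In all 9 risen genes the groups did not overlap. The calls come from the same libraries, so this is no separate support. The calls of Bysl (without WT 1 or WT 2), Utp4 (without WT 1) and Utp14a (without WT 1, WT 2, Eumyc 1 or Eumyc 3) did not hold (edgeR adjusted p = 0.0524 to 0.0866), and 6 genes rose without WT 1.

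Imp4, which encodes a protein of the U3 snoRNP, was the only member called lower. Located on chromosome 1 from 34439851 to 34449356, it was at 58.9, 55.8 and 54.0 CPM in Eumyc and 64.6, 71.2 and 63.1 CPM in WT. Its log2 fold change was -0.24 ± 0.07 (edgeR adjusted p = 0.0222), with no overlap. The call was lost without WT 1, WT 2, Eumyc 2 or Eumyc 3 (0.0517, 0.0875, 0.0741 and 0.0841) and with no filter (0.0522), with the sign kept. Nob1, the nuclease that makes the final cut of 18S rRNA, was at 38.4, 33.4 and 39.9 CPM in Eumyc and 37.2, 33.0 and 41.7 CPM in WT. The processome gene Nop14 was at 38.3, 35.1 and 38.6 CPM in Eumyc and 35.0, 39.0 and 40.3 CPM in WT. Neither passed (edgeR adjusted p = 0.993 and 0.799), their groups overlapped, and their signs changed between settings.

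Large subunit assembly genes rose in 7 of 10 tested cases and fell in none, with a median log2 fold change of 0.34. Nop16, on chromosome 13 from 54584185 to 54590090, was at 16.7, 18.6 and 20.6 CPM in Eumyc and 8.66, 8.76 and 12.04 CPM in WT (0.94 ± 0.15, edgeR adjusted p = 0.00164). Rrs1, which helps load the 5S particle, was at 41.5, 42.4 and 43.2 CPM in Eumyc and 23.8, 24.9 and 31.4 CPM in WT (0.67 ± 0.11). Of the complex formed by Pes1, Bop1 and Wdr12, which matures 28S rRNA, Pes1 rose by 0.43 ± 0.08 and was at 56.6 ± 2.80 CPM in Eumyc and 42.2 ± 3.03 CPM in WT. Bop1 rose by 0.31 ± 0.07 and was at 98.3 ± 1.67 CPM in Eumyc and 79.3 ± 6.27 CPM in WT (SD, n = 3 each). Wdr12 was at 18.7, 18.1 and 20.2 CPM in Eumyc and 13.2, 13.8 and 18.0 CPM in WT, and did not pass (0.34 ± 0.13, edgeR adjusted p = 0.0582). It passed without WT 3 (0.50, edgeR adjusted p = 0.00564), with no filter (0.0423), with the replicate block (0.0255), with DESeq2 (0.0314) and with limma-voom (0.0221). The rRNA methyltransferase gene Nop2 rose by 0.33 ± 0.10, but not without WT 1, WT 2, Eumyc 1 or Eumyc 3 (edgeR adjusted p = 0.0539 to 0.0865).

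The paralogs Rrp1b and Rrp1 differed in size of change. Rrp1b, on chromosome 17 from 32036100 to 32062865, was at 77.1, 72.4 and 74.4 CPM in Eumyc and 36.3, 35.3 and 49.5 CPM in WT (0.89 ± 0.12, edgeR adjusted p = 0.000796). Rrp1, on chromosome 10 from 78400384 to 78413043 and the most abundant gene of this role, was at 143, 144 and 151 CPM in Eumyc and 133, 130 and 132 CPM in WT. Rrp1 rose by 0.15 ± 0.05 (edgeR adjusted p = 0.0356), a call lost without any one library but WT 3 (0.0504 to 0.103), with no filter (0.0512) and with total count (0.0977) or upper quartile scaling (0.0999). Noc2l stood at 106 ± 7.57 CPM in Eumyc and 97.7 ± 7.11 CPM in WT, and Ebna1bp2 at 66.6 ± 3.31 and 65.4 ± 3.04 CPM in the same order (SD, n = 3 each). Neither passed (edgeR adjusted p = 0.222 and 0.774), and the sign of Ebna1bp2 turned with total count and upper quartile scaling. Wdr74 was listed at 0 in every library, and Gm45736, which overlaps its span in the table, was also listed at 0, so Wdr74 has no value here.

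**Figure D2:**
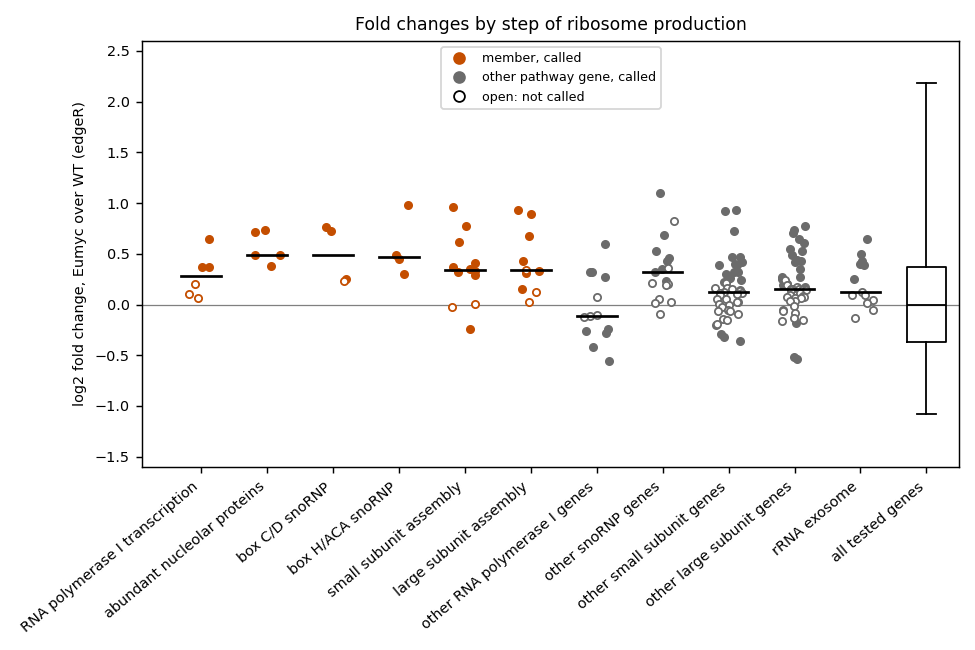
Log2 fold change of each tested gene, Eumyc over WT, for the 6 role lists of members (orange) and 5 lists of other pathway genes (grey), with list medians as lines. Filled points passed the test. The box gives all tested genes (median, quartiles, and whiskers at the 5th and 95th percentiles). The medians of the member lists lie above 0, while small subunit members and each of the 5 lists of other pathway genes lie on both sides of it.

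Ratios between partner genes, and between the paralogs Rrp1b and Rrp1, were compared in each library for 11 pairs. The CPM ratio of Rrp1b to Rrp1 was 0.539, 0.502 and 0.491 in Eumyc and 0.273, 0.273 and 0.374 in WT. The ratio of Nop58 to Nop56 was 0.877, 0.825 and 0.883 in Eumyc and 0.574, 0.524 and 0.706 in WT. The ratio of Nhp2 to Dkc1 was 0.704, 0.659 and 0.628 in Eumyc and 0.442, 0.415 and 0.514 in WT. In each, all Eumyc values lay above all WT values, with WT 3 nearest to them. The ratio of Polr1c to Polr1a went the other way, at 0.437, 0.530 and 0.482 in Eumyc and 0.578, 0.541 and 0.663 in WT. For Gar1 to Dkc1 and Wdr12 to Bop1 the groups overlapped (two-sided exact permutation p = 0.8 each). The other 9 of 11 pairs compared had an exact permutation p of 0.1, the smallest that 3 against 3 libraries allow, and 0.122 after Benjamini-Hochberg adjustment, so no pair could pass 0.05.

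**Figure D3:**
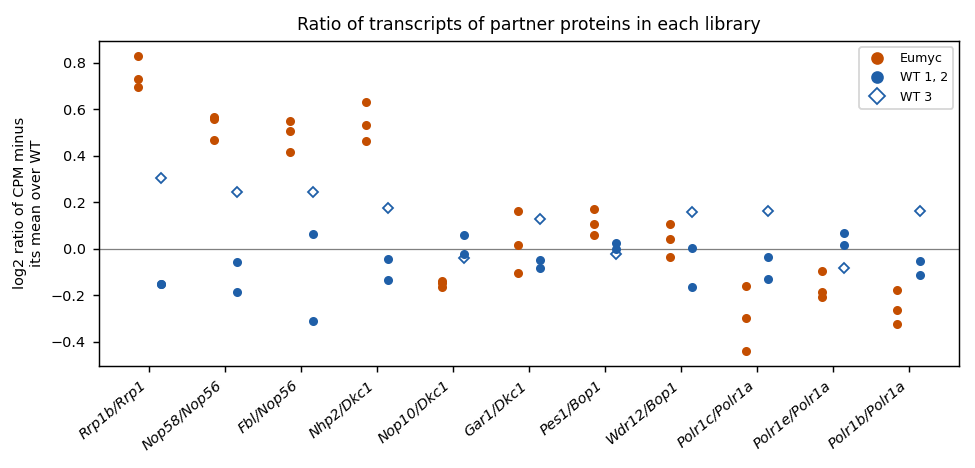
Log2 ratio of CPM between partner genes in each library, minus its mean over the 3 WT libraries. Orange points are Eumyc, blue points WT 1 and 2, open diamonds WT 3. The Rrp1b, Nop58, Fbl and Nhp2 ratios lie higher in Eumyc, the polymerase subunits lie lower relative to Polr1a, and Gar1/Dkc1 and Wdr12/Bop1 overlap.

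The other lists of the pathway were mixed. Of all 136 tested genes in the 5 lists that hold no member, 53 rose and 12 fell, against 25.7% and 23.1% of all tested genes, with a median log2 fold change of 0.15. Among other snoRNP and RNase MRP genes 8 of 17 rose and none fell, led by Pop1, a subunit of the RNases P and MRP, at 20.2, 18.5 and 20.4 CPM in Eumyc and 9.20, 7.14 and 11.6 CPM in WT (2.14-fold, edgeR adjusted p = 0.00121). Ruvbl2, an ATPase of snoRNP assembly, rose by 0.53 ± 0.08. Of other small subunit genes 16 of 45 rose and 4 fell. The late factor gene Pno1 and Nol10 rose by 0.93 ± 0.13 and 0.92 ± 0.08, and Krr1, Dimt1, Ngdn and Ddx47 fell by 0.36 (SE 0.07), 0.32 (0.11), 0.29 (0.06) and 0.20 (0.05) on the log2 scale. Of other large subunit genes 19 of 48 rose and 3 fell. Mrto4 and Rrp15 rose by 0.77 ± 0.13 and 0.73 ± 0.16, while Ddx55, Nsun5 and Lsg1 fell by 0.54 (SE 0.07), 0.51 (0.09) and 0.18 (0.06). In the exosome list 6 of 13 rose and none fell, with Dis3 at 0.64 ± 0.18 and Exosc9 at 0.50 ± 0.10. Dimt1 and Lsg1 each lost their call whichever library was left out (edgeR adjusted p = 0.0799 to 0.162 for Dimt1 and 0.0602 to 0.136 for Lsg1). Dis3 lost it without WT 1 or Eumyc 3 (0.0661 and 0.0543). The small subunit list had 9 to 18 of 45 genes higher and 3 to 5 lower without single libraries. Of all tested genes 16.3% to 22.4% were lower in these fits. The list had 9, 9 and 10 higher without WT 1, WT 2 and Eumyc 3. Of all tested genes 20.4%, 20.2% and 20.7% were higher there, close to the share of the list. The large subunit list had 2 lower without WT 1, WT 2 or any Eumyc library. The exosome list had 3 of 13 higher without Eumyc 3, also close to the share of all genes, and 4 without WT 1 or WT 2.

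Values of Myc and of the cell cycle list are given beside those of the members. Myc was at 121, 116 and 95.4 CPM in Eumyc and 58.3, 61.6 and 77.9 CPM in WT (0.75 ± 0.12, edgeR adjusted p = 0.00176). The proliferation marker Mki67 was at 583, 633 and 803 CPM in Eumyc and 31.8, 25.6 and 136 CPM in WT, and its log2 fold change of 3.42 ± 0.59 was 4.57 without WT 3. The summed CPM of the 42 members, unscaled, was 3505, 3580 and 3982 in Eumyc and 2647, 2518 and 3027 in WT. Summed cell cycle CPM was 3074, 3159 and 4314 in Eumyc and 581, 536 and 1180 in WT. In both lists Eumyc 3 was the highest Eumyc library and WT 3 the highest WT library, while Myc was lowest in Eumyc 3 and highest in WT 3 within their groups. WT 3 exceeded the average of the other WT libraries for 36 of the 41 members, with a median difference of 0.23 (log2), and for 49.8% of all tested genes. The mean of the Eumyc libraries was above WT 3 alone for 36 members, with a median difference of 0.22 (log2), and for 7756 of all 15458 tested genes. Without WT 3 the median log2 fold change of the members was 0.47. The part of cell division and of Myc in the change of the members was not tested.

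**Figure D4:**
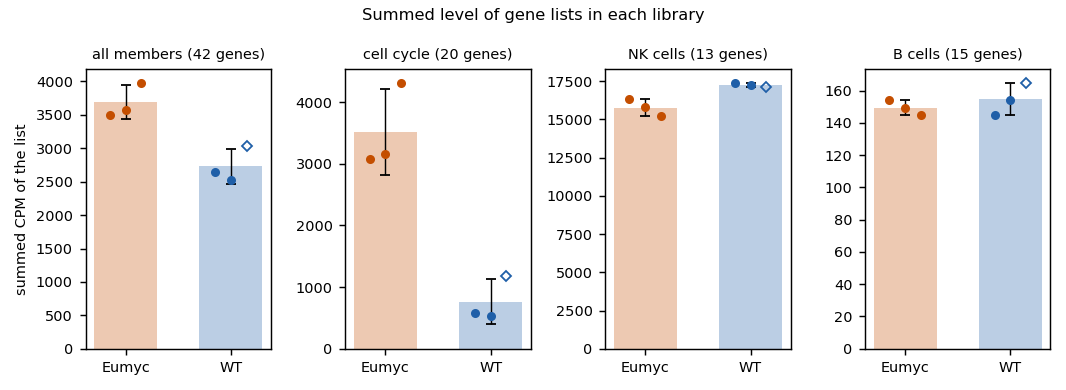
Summed CPM, without TMM scaling, of the 42 members and of the cell cycle, NK cell and B cell lists in each library. Bars are means and error bars SD of 3 libraries; filled points are single libraries and the open diamond is WT 3. The member and cell cycle sums are higher in Eumyc, and the B cell sums, most of which is Cd72, overlap although 7 of 10 tested B cell genes were called higher.

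The authors' deposited table of their own comparison lists 41 of the 42 members. According to the authors' deposited table, 33 of them had an adjusted p under 0.05 and were higher in Eumyc, against 30.5% of all genes listed there with an adjusted p. The median log2 fold change of the members in the authors' deposited table was 0.355. The authors' values can differ in size from those of edgeR. For Mki67 the log2 fold change was 1.44 in the authors' comparison and 3.42 in edgeR.

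Some counts are uncertain because genes overlap. In GENCODE M21, 18 members share exon bases with another gene, 15 of them with one on the opposite strand, and 5 share over 5% of their exon bases. For Tsr1 the share was 32.3%, with Srr, for Noc2l 20.9%, with Samd11, and for Utp14a 11.5%, with a long noncoding RNA gene. Bysl shares 9.37% with Ccnd3 and Nop14 5.27% with an antisense gene. No source used here gives the strand setting of the counting, and reads in these stretches cannot be assigned with certainty.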

How the data were processed

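RNA of sorted splenic NK cells was sequenced in 6 libraries. The authors deposited whole-number counts per gene on mm10 (GRCm38), and the submitters' processing notes name the tools DESeq2 1.10.1, STAR 2.5.2 and HTSeq 0.6.1. Annotation release, strand setting and read filters: not given in the sources used here. A second table deposited by the authors holds their Eumyc against WT comparison, of which the log2 fold change and the adjusted p-value were used as they stand.

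The test was that of edgeR 4.0.16 under R 4.3.3 (filterByExpr with a minimum count of 10, TMM scaling, quasi-likelihood test on the group, two-sided, Benjamini-Hochberg over 15458 tested genes, threshold 0.05). Members were read out of this fit. SE comes from the F statistic, and CPM values are TMM-scaled unless stated otherwise. In simulated counts for 15458 genes, 68.7% of 67 genes changed 2-fold and 38.8% of 80 changed 1.5-fold were recovered, with 7.52% of calls false. Few genes were changed there, while 48.8% were called in the data, so these shares cannot be carried over to the members. Transcript lengths are from GENCODE M21 and promoters from RefSeq. Libraries were grouped by their titles. No libraries of a group agreed within sampling noise (chi-square per degree of freedom at least 8.21).

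The members and lists were chosen with earlier results of these data known. Named genes are, in each role, the highest, lowest and most abundant member, the subunits of named complexes, all members not called or lower, and in each list of other pathway genes the 2 highest of those called and up to 5 called lower, from 10 CPM in the higher group upwards. Riok2 was not analysed here. Alternatives were DESeq2 1.42.0, limma 3.58.1 voom, 3 other scalings, 2 other filters, thinning to the smallest total, a replicate block, and fits without each library in turn. Figures used matplotlib 3.10.9.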

Additional observations from a re-analysis of the deposited data

How the results depend on the processing

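Under the 15 alternatives the number of members called higher was 22 to 33 and their median log2 fold change 0.32 to 0.47, so the direction was kept in each; among all genes 17.0% to 29.6% were called higher. The number called lower was 0 with no filter, and 0 to 1 when single libraries were left out. The number past 1.5-fold was 6 with the replicate block, and 0 to 10 when single libraries were left out, with no share of all genes given for these fits. The cause was not tested. Whether the replicate numbers pair the libraries was not settled. The correlation of their deviations from the group means was 0.0868, 0.212 and 0.311 for numbers 1, 2 and 3, one of them under 0.1. These values were low, but each library correlated best with its own number. With the replicate block 33 members were higher and 1 lower, and 7860 of all genes were called in place of 7549. Among single genes with no call, Nob1 changed sign to -0.0345 with total counts, -0.0384 with upper quartile scaling, -0.00780 with the filter of 3 CPM in 3 libraries and -0.0817 at equal depth, and ranged from -0.0723 to 0.0949 without single libraries. Ebna1bp2 was -0.0105 with total count and -0.0148 with upper quartile scaling. Nop14 was -0.0754 to 0.0310 without single libraries. The lowest count of a tested member was 201, in WT 3, and with all libraries thinned to the smallest total 29 members were called higher.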

Other observations

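Genes that differed most between Eumyc and WT also tended to stand apart in WT 3. Across the 41 tested members, the log2 difference between the Eumyc mean and WT 1 correlated with that between WT 3 and WT 2 (r = 0.68), and the difference between the Eumyc mean and WT 2 with that between WT 3 and WT 1 (r = 0.66). No library enters both sides of either correlation. Across all 15458 tested genes the same values were 0.51 and 0.43. These are correlations across genes, which share libraries and depth and are not independent replicates. Across the members the log2 fold change did not go with abundance (r = 0.02 with log2 mean CPM).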
